A study of Homo sapiens with 6 samples.

Results

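The genes described here code for the TGF-β ligands (TGFB1, TGFB2 and TGFB3), their receptors (TGFBR1, TGFBR2 and TGFBR3), the signal transducer SMAD3, the feedback inhibitors SMAD7 and SKIL, and TGFBI, a matrix protein gene named for its induction by TGF-β. They were chosen by name, and all 10 were found among the 58735 rows of the count table. RNA-Seq was performed on MCF10A, an established line of nonmalignant human breast epithelial cells, 48 hours after transfection with a nontargeting control siRNA pool (siControl, genotype given as WT, n = 3) or with siRNA against DAB2IP, the gene of a RasGAP tumor suppressor (siDAB2IP, the DAB2IP knockdown, n = 3). Both groups grew in the same DMEM/F12 medium with horse serum, insulin, epidermal growth factor, cholera toxin, hydrocortisone and antibiotics, and no TGF-β is among the listed additions. The comparison asks how transcripts of the TGF-β pathway differ when DAB2IP is reduced. The labels do not say whether the replicates were separate cultures, so p-values measure the spread between these libraries, which may be technical. All libraries come from 1 line after a transient knockdown, and the number of siRNA sequences against DAB2IP is not given in the labels.

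TGF-β ligands are secreted as latent dimers that are held in the matrix until integrins or proteases release them. The active ligand is bound by TGFBR2, which phosphorylates TGFBR1, and TGFBR1 in turn phosphorylates SMAD2 and SMAD3, which enter the nucleus with SMAD4. TGFBR3, or betaglycan, presents ligand to TGFBR2 and is needed most for TGFB2, which binds TGFBR2 weakly on its own. In mammary epithelial cells the pathway is known for growth arrest and for induction of extracellular matrix and migration genes.

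Sequences upstream of the start sites of 4 genes are shown because their transcripts rose or fell, or, for TGFB3, to set the second low-abundance ligand beside TGFB2. TGFBR1, which also fell, has 8 windows and is not shown. They are RefSeq promoter windows of build GRCh38.p14, read 5′ to 3′ on the strand of the gene, and bases within an annotated exon of a protein-coding gene were left out. In each window 4 motifs were searched on both strands, and matches are in capitals: CAGACA (SMAD-binding), TGANTCA (AP-1), GGGCGG (GC box) and CACGTG (E-box).
TGFB2, chr1:218345086-218345335, plus strand: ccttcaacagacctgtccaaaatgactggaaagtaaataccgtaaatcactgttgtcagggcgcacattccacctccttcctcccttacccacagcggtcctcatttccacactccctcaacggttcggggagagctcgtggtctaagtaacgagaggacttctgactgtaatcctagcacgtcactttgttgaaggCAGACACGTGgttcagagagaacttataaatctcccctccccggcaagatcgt
TGFB3, chr14:75983012-75983261, minus strand: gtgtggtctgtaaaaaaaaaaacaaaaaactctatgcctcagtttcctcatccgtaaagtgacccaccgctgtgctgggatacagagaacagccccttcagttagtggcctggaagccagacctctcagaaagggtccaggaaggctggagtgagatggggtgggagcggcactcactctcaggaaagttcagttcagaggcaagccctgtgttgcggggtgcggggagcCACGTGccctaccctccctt
TGFBR3, chr1:91886280-91886401, minus strand: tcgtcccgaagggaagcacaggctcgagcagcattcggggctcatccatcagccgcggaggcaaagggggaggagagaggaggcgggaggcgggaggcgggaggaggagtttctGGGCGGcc
SKIL, chr3:170357465-170357677, plus strand: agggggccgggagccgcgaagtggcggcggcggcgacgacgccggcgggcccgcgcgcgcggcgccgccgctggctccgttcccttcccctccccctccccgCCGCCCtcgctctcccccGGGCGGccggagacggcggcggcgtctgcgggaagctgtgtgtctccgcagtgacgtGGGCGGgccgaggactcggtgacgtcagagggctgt
In the TGFB2 window the capitals are a CAGACA at position −53 from the RefSeq start and a CACGTG at −49, which overlap. This window lies in an exon of the antisense RNA gene TGFB2-AS1, and the RefSeq start at 218345336 lies before the start of TGFB2 in the count table, at 218346235. TGFB3 has 2 windows. The one shown held a CACGTG at −20, whereas the other (chr14:75981996-75982245) held none of the 4 motifs. Neither of the ligand windows shown held a GC box, whereas the single TGFB1 window held 6. The capitals of the TGFBR3 and SKIL windows are GC boxes, which for SKIL includes CCGCCC, the same motif on the other strand. The TGFBR3 window and its RefSeq start at 91886151 lie within TGFBR3 as placed in the count table, whose 5′ end is at 91906335. Over the 25 windows of the 10 genes, CAGACA was found in 4, TGANTCA in 1, GGGCGG in 10 and CACGTG in 3. Over all 35116 windows of 250 bases in the RefSeq table, 13.6% held CAGACA, 6.6% TGANTCA, 42.6% GGGCGG and 6.3% CACGTG. These matches describe the sequence and were not tested against the expression values.

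The knockdown was seen in every library. DAB2IP (ENSG00000136848) was at 103, 94.2 and 77.4 CPM (reads of the gene relative to the library total, TMM-normalized) in siControl replicates 1, 2 and 3, and at 27.5, 25.6 and 22.4 CPM in siDAB2IP replicates 1, 2 and 3, a log2 fold change of −1.86 ± 0.13 (SE; edgeR quasi-likelihood test with Benjamini-Hochberg adjustment, adjusted p = 9.71e-05). The libraries held 16353783 to 21916062 counts. In a principal component analysis of log2 CPM, siControl and siDAB2IP fell apart along the leading component (51.5% of the variance), and the libraries numbered 3 fell apart from the others along the next (20.2%). Along the leading component siDAB2IP replicate 3 (51.1) also lay apart from siDAB2IP replicates 1 and 2 (18.1 and 20.4). The siControl libraries lay close together there (−31.2, −30.5 and −27.9). Values without both libraries of replicate 3, chosen after the data had been seen, are therefore given beside results that depend on them. Of the epithelial markers, all 10 had a mean FPKM over 1, whereas none of the 6 blood and endothelial markers did.

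Of the 10 genes, TGFB2 and SKIL rose with DAB2IP knockdown, TGFBR1 and TGFBR3 fell, and 6 did not pass the test. TGFB2 rose 2.89-fold, SKIL rose 1.45-fold, and TGFBR1 and TGFBR3 fell to 43.4% and 46.6% of their level in siControl. Over all 15430 genes tested, 6.55% rose (1011 genes), 7.65% fell (1181 genes) and 14.2% changed in either direction, at an adjusted p under 0.05. For 6 of the 10 genes no siDAB2IP value lay within the siControl range, beside 35.9% of all genes tested. The median log2 fold change of the 10 genes was −0.03, and that of all genes tested was 0.01. All 10 genes passed the filter on low counts. The same 4 genes were called without both libraries of replicate 3. Leaving out each library in turn, the call of SKIL was lost in all but 1 fit, which left 1 gene that rose, whereas TGFB2, TGFBR1 and TGFBR3 were called in all 6 fits.

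**Figure D1:**
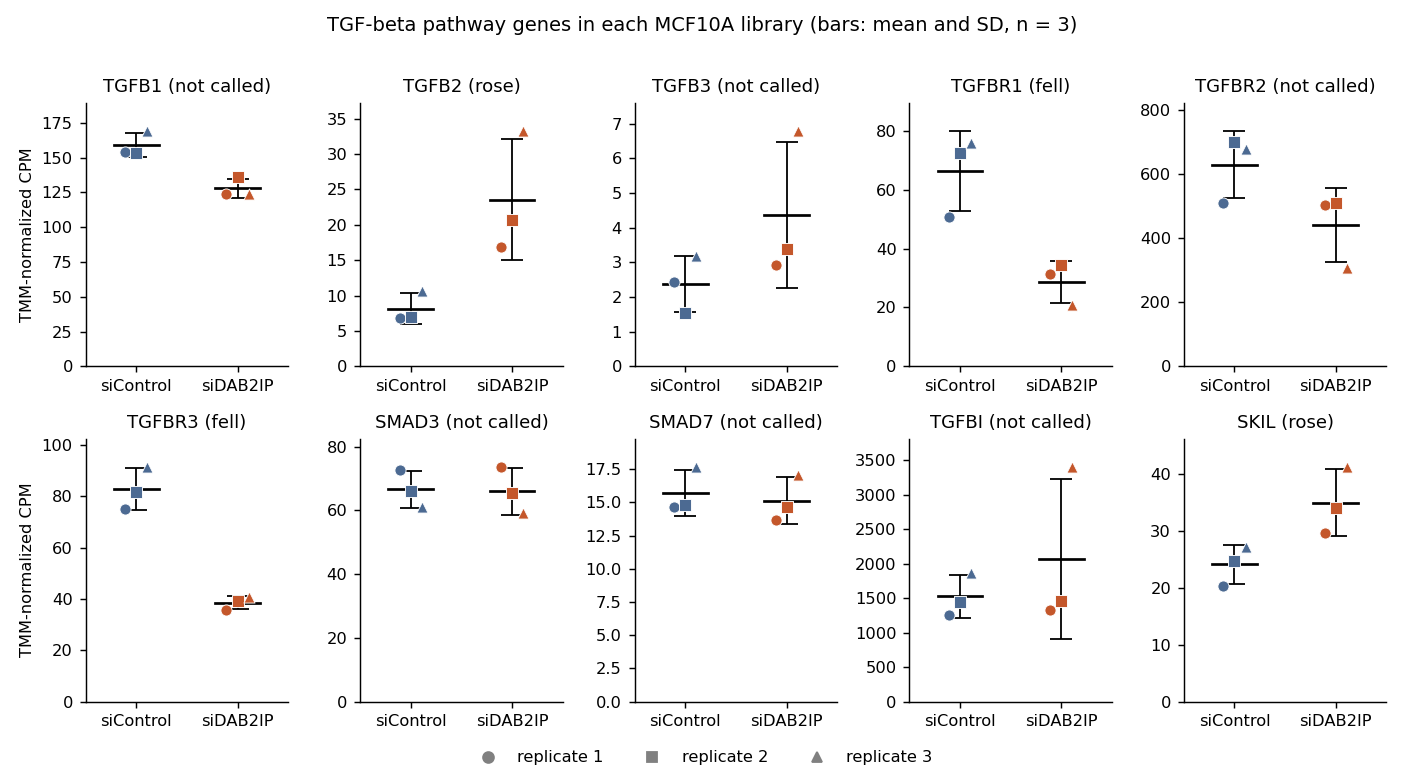
TMM-normalized CPM of each gene in the 3 siControl and 3 siDAB2IP libraries (circle, square and triangle for replicates 1, 2 and 3; long line, mean; bars, SD), each panel with its own axis from 0. TGFB2 and SKIL lie higher in every siDAB2IP library, TGFBR1 and TGFBR3 lower, and the values of SMAD3 and SMAD7 overlap.

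Among the ligands, TGFB2 rose. It is a TGF-β isoform that depends on TGFBR3 for efficient binding. TGFB2 (ENSG00000092969, hg38 chromosome 1, 218346235 to 218444619) was at 6.85, 6.96 and 10.7 CPM in siControl and at 16.8, 20.7 and 33.2 CPM in siDAB2IP, from 110 to 182 and from 298 to 573 counts. The lowest siDAB2IP library was above the highest siControl library, and replicate 3 was the highest of its group in both groups. The log2 fold change was 1.53 ± 0.27 (SE; 95% interval 0.94 to 2.12; edgeR adjusted p = 0.00631), and it was 1.44 without both libraries of replicate 3. The ratio of the libraries that share a replicate number was 1.29, 1.57 and 1.64 on the log2 scale.

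TGFB1, the most abundant ligand transcript, was lower in every siDAB2IP library but missed the threshold. TGFB1 (ENSG00000105329, chromosome 19, 41301587 to 41353911) was at 154, 154 and 169 CPM in siControl and at 124, 136 and 124 CPM in siDAB2IP. The groups did not overlap, and the log2 fold change was −0.31 ± 0.09 (SE; 95% interval −0.52 to −0.10; edgeR adjusted p = 0.0535). Once the replicate number was fitted as a block, the adjusted p came to 0.0393, and DESeq2 gave 0.0395, so that the call depends on the test; over all alternatives it ranged from 0.0393 to 0.155. TGFB1 overlaps HNRNPUL1, CCDC97 and TMEM91, which lie on the opposite strand and were tested (log2 fold changes −0.20, −0.39 and 0.47). Since no source names the strand setting of the counting, reads from these genes and TGFB1 cannot be told apart in the overlapping parts.

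TGFB3 was the lowest of the 10 genes, at 33 to 54 counts in the siControl libraries and 52 to 117 in the siDAB2IP libraries. TGFB3 (ENSG00000119699, chromosome 14, 75958099 to 75982991) was at 2.43, 1.53 and 3.17 CPM in siControl and at 2.93, 3.38 and 6.78 CPM in siDAB2IP. The groups overlapped, since siDAB2IP replicate 1 was below siControl replicate 3. The log2 fold change was 0.89 ± 0.37 (SE; 95% interval 0.05 to 1.72; edgeR adjusted p = 0.142). Once the replicate number was fitted as a block, the adjusted p came to 0.0394, and within each replicate number siDAB2IP was higher, by 0.27, 1.14 and 1.10 on the log2 scale. Over all alternatives the adjusted p ranged from 0.0176 to 0.456. TGFB3 overlaps IFT43 on the opposite strand.

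FPKM values, which are scaled by gene length, allow the ligands to be compared with each other. In siControl the TGFB1 transcript was at 48.7 ± 2.58 FPKM (SD, n = 3), TGFB2 at 1.57 ± 0.42 and TGFB3 at 0.48 ± 0.16. In siDAB2IP they were at 39.1 ± 2.07, 4.53 ± 1.64 and 0.88 ± 0.42 FPKM. TGFB2 made up 2.69%, 2.75% and 3.78% of the summed FPKM of the 3 ligand genes in the siControl libraries and 7.74%, 8.61% and 14.0% in the siDAB2IP libraries. TGFB1 remained the main ligand transcript in every library, with a mean share of 96.0% in siControl and 87.9% in siDAB2IP. TGFB3 had a mean share of 0.94% in siControl and 1.96% in siDAB2IP. For each of the 3 shares the groups did not overlap, and the two-sided exact permutation test gave p = 0.1, the smallest that 3 libraries against 3 allow (0.114 after Benjamini-Hochberg adjustment over 8 shares). The summed FPKM of the 3 ligands was 50.7 ± 3.14 in siControl and 44.5 ± 2.37 in siDAB2IP (exact permutation p = 0.1).

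**Figure D2:**
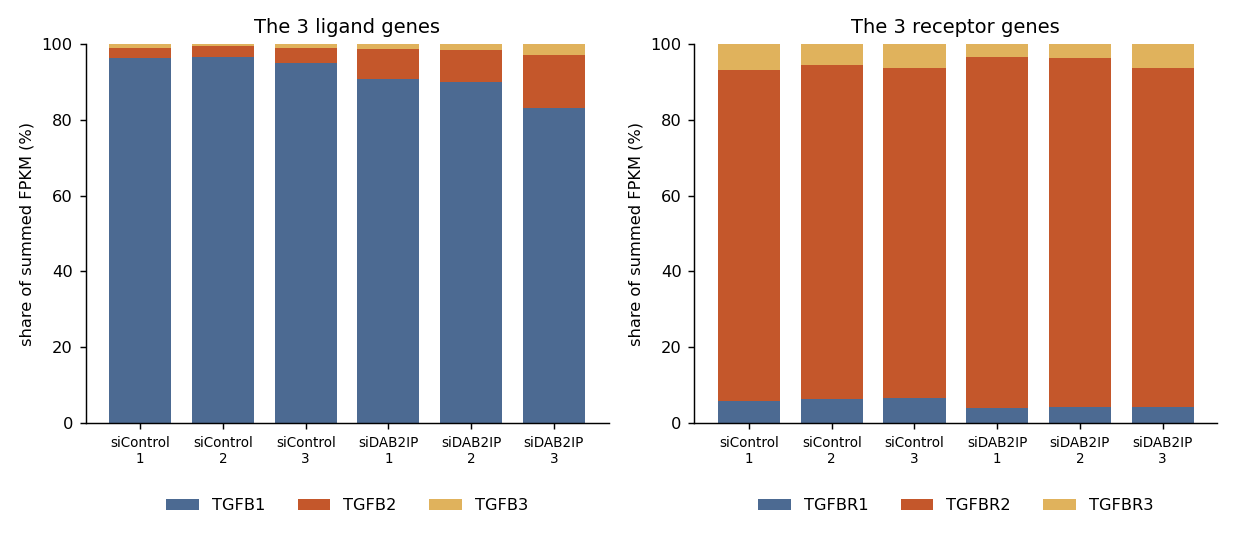
Share of the summed FPKM of the 3 ligand genes (left) and the 3 receptor genes (right) that each gene takes in each library, in percent. TGFB2 takes at most 3.78% in siControl and at least 7.74% in siDAB2IP, and TGFBR2 takes at least 86.96% of the receptor sum in every library.

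Among the receptors, TGFBR1 and TGFBR3 fell. TGFBR1 (ENSG00000106799, chromosome 9, 99104038 to 99154192), the type I receptor kinase that phosphorylates SMAD2 and SMAD3, was at 50.7, 72.4 and 75.8 CPM in siControl and at 31.3, 34.3 and 20.8 CPM in siDAB2IP. The groups did not overlap, and siDAB2IP replicate 3 was the lowest library. This was a log2 fold change of −1.20 ± 0.20 (SE; 95% interval −1.65 to −0.76; edgeR adjusted p = 0.00514), and it was −0.92 without both libraries of replicate 3. TGFBR3 (ENSG00000069702, chromosome 1, 91680343 to 91906335), the coreceptor, was at 75.3, 81.9 and 91.6 CPM in siControl and at 35.8, 39.2 and 40.9 CPM in siDAB2IP. Its libraries varied little within each group, and its 3 ratios by replicate number were −1.07, −1.06 and −1.16 on the log2 scale. Its log2 fold change was −1.10 ± 0.11 (SE; 95% interval −1.34 to −0.86; edgeR adjusted p = 0.000449), the smallest p of the 10 genes and the 40th smallest of all genes tested.

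TGFBR2, the type II receptor that binds ligand first, did not pass the test. TGFBR2 (ENSG00000163513, chromosome 3, 30606502 to 30694142) was at 510, 702 and 677 CPM in siControl and at 504, 510 and 308 CPM in siDAB2IP. The groups did not overlap in CPM, but siDAB2IP replicates 1 and 2 were at about the level of siControl replicate 1, and siDAB2IP replicate 3 was the lowest. The log2 fold change was −0.52 ± 0.20 (SE; 95% interval −0.96 to −0.08; edgeR adjusted p = 0.110). It was −0.26 without both libraries of replicate 3, whereas DESeq2 with all libraries gave an adjusted p of 0.0378, within a range of 0.000856 to 0.334 over all alternatives.

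By FPKM, TGFBR2 was the main receptor transcript, at 133 ± 22.2 in siControl and 92.7 ± 24.3 in siDAB2IP (SD, n = 3). TGFBR1 was at 9.60 ± 1.98 and 4.16 ± 1.03 FPKM, and TGFBR3 at 9.44 ± 0.93 and 4.39 ± 0.29 FPKM. The share of TGFBR1 in the summed FPKM of the 3 receptor genes was 5.95%, 6.25% and 6.69% in siControl and 3.94%, 4.25% and 4.14% in siDAB2IP. The groups did not overlap, and within siDAB2IP the share of TGFBR1 in replicate 3 lay between those of replicates 1 and 2, although its CPM was the lowest there. The mean share of TGFBR2 was 87.4% in siControl and 91.3% in siDAB2IP, without overlap. For both shares the exact permutation p was 0.1 (adjusted, 0.114). TGFBR3 took 6.28% in siControl and 4.60% in siDAB2IP, and here the groups overlapped (exact permutation p = 0.3). The summed FPKM of the 3 receptors was 152 ± 24.8 in siControl and 101 ± 25.1 in siDAB2IP, lower in every siDAB2IP library (exact permutation p = 0.1).

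The epithelial markers differed along with the receptors. Their summed level was 2717 to 3345 FPKM in the siControl libraries and 1586 to 1968 FPKM in the siDAB2IP libraries. Of the 10 markers, the basal keratins KRT5, KRT14, KRT6A and KRT17 fell. In these bulk libraries fewer cells of a type and less RNA per cell cannot be told apart, and the part of these differences in the receptor values was not tested. Of the luminal markers, 4 of 8 passed the filter on low counts and FOXA1 rose, with summed levels of 70.7 to 73.7 FPKM in siControl and 62.3 to 83.2 FPKM in siDAB2IP. The summed fibroblast markers, 4 of 9 tested, were at 14.8 to 26.7 and 16.1 to 22.2 FPKM, and COL1A1 rose. The blood and endothelial markers, 3 of 6 tested, were at 1.53 to 2.14 and 1.08 to 1.59 FPKM. By edgeR, 0 of these 3 were called and 1 had an unadjusted p under 0.05, beside 4636 of all 15430 genes tested. DESeq2 also called 0.

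SMAD3 and SMAD7 did not pass the test, and their groups overlapped. SMAD3 (ENSG00000166949, chromosome 15, 67063763 to 67195195), which carries the signal from TGFBR1 to the nucleus, was at 72.8, 66.0 and 61.0 CPM in siControl and at 73.7, 65.4 and 59.0 CPM in siDAB2IP. The libraries with the same number differed little, and the 95% interval of the log2 fold change was −0.26 to 0.24 (edgeR adjusted p = 0.960). SMAD7 (ENSG00000101665, chromosome 18, 48919853 to 48952052), the inhibitory SMAD that blocks TGFBR1 and is itself induced by TGF-β, was at 14.6, 14.8 and 17.7 CPM in siControl and at 13.7, 14.7 and 17.1 CPM in siDAB2IP. Its 95% interval was −0.38 to 0.27 on the log2 scale (edgeR adjusted p = 0.850).

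SMAD2, the partner of SMAD3 downstream of TGFBR1, fell. It was at 55.0, 53.7 and 50.7 CPM in siControl and at 38.8, 41.0 and 39.0 CPM in siDAB2IP, a log2 fold change of −0.42 ± 0.09 (SE; edgeR adjusted p = 0.0168). SMAD4, the common partner of both, was at 46.0, 49.7 and 49.3 CPM in siControl and at 42.4, 40.4 and 37.0 CPM in siDAB2IP (log2 fold change −0.27; edgeR adjusted p = 0.0949). The groups did not overlap for SMAD2 or SMAD4, although SMAD4 missed the threshold. By FPKM, SMAD3 made up 83.3% ± 0.68 (SD) of SMAD2 plus SMAD3 in siControl and 86.9% ± 1.34 in siDAB2IP, higher in all 3 siDAB2IP libraries (exact permutation p = 0.1, adjusted 0.114). The size of this share depends on the gene lengths used, 36366 bases for SMAD2 and 9113 for SMAD3. By CPM, which is not scaled by length, the siControl means were nearer, at 66.6 for SMAD3 and 53.1 for SMAD2. With counts in place of FPKM the share differed by 6.83 percentage points.

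SKIL, which codes for the SMAD corepressor SnoN, rose by the smallest margin of the 4 genes called. SKIL (ENSG00000136603, chromosome 3, 170357678 to 170396835) was at 20.4, 24.7 and 27.3 CPM in siControl and at 29.7, 34.1 and 41.3 CPM in siDAB2IP. The groups did not overlap, and the ratios by replicate number were 0.54, 0.46 and 0.60 on the log2 scale. The log2 fold change was 0.54 ± 0.15 (SE; 95% interval 0.19 to 0.88; edgeR adjusted p = 0.0450). The call was kept without siDAB2IP replicate 1 (adjusted p = 0.0373) and lost without siControl replicate 1 (0.166), siControl replicate 2 (0.148), siControl replicate 3 (0.0730), siDAB2IP replicate 2 (0.0789) or siDAB2IP replicate 3 (0.0673). SKIL made up 15.2% ± 2.10 (SD) of the summed FPKM of SKI, its close relative, and SKIL in siControl and 25.3% ± 6.44 in siDAB2IP, without overlap (exact permutation p = 0.1, adjusted 0.114).

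TGFBI did not pass the test, and its value depended on 1 library. TGFBI (ENSG00000120708, chromosome 5, 136028895 to 136063818) was at 1260, 1451 and 1874 CPM in siControl and at 1337, 1462 and 3409 CPM in siDAB2IP. Replicates 1 and 2 of siDAB2IP lay within the siControl range, and replicate 3 was far above it. With all libraries the log2 fold change was 0.44 ± 0.32 (SE; 95% interval −0.28 to 1.15; edgeR adjusted p = 0.401), −0.13 without siDAB2IP replicate 3, and 0.04 without both libraries of replicate 3.

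**Figure D3:**
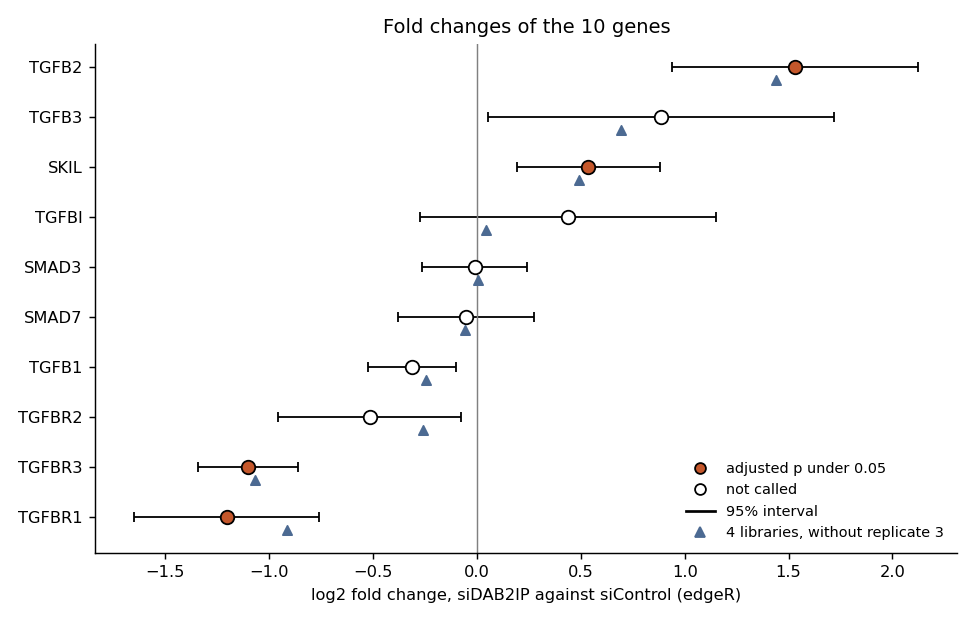
Log2 fold changes of the 10 genes in siDAB2IP against siControl by edgeR (circles; filled, adjusted p under 0.05; bars, 95% interval), with the estimate from the 4 libraries of replicates 1 and 2 as triangles. TGFB2 and SKIL lie above 0 and TGFBR1 and TGFBR3 below it in both sets of libraries, whereas TGFBI moves from 0.44 to 0.04.

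Replicate 3 gave the largest ratio for most of the genes. Of the 3 ratios by replicate number, the largest in absolute size was that of replicate 3 for 8 of the 10 genes, and it was so for 7481 of all 15430 genes tested. For TGFBR1 the 3 ratios were −0.70, −1.08 and −1.87 on the log2 scale. For TGFBR2 they were −0.02, −0.46 and −1.14, and for TGFBI they were 0.09, 0.01 and 0.86. The ratios of TGFBR3 and SKIL lay close together, and those of TGFB2 were all above 1. What sets replicate 3 apart is not given in the labels, and its part in these values was not tested beyond leaving the libraries out.

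**Figure D4:**
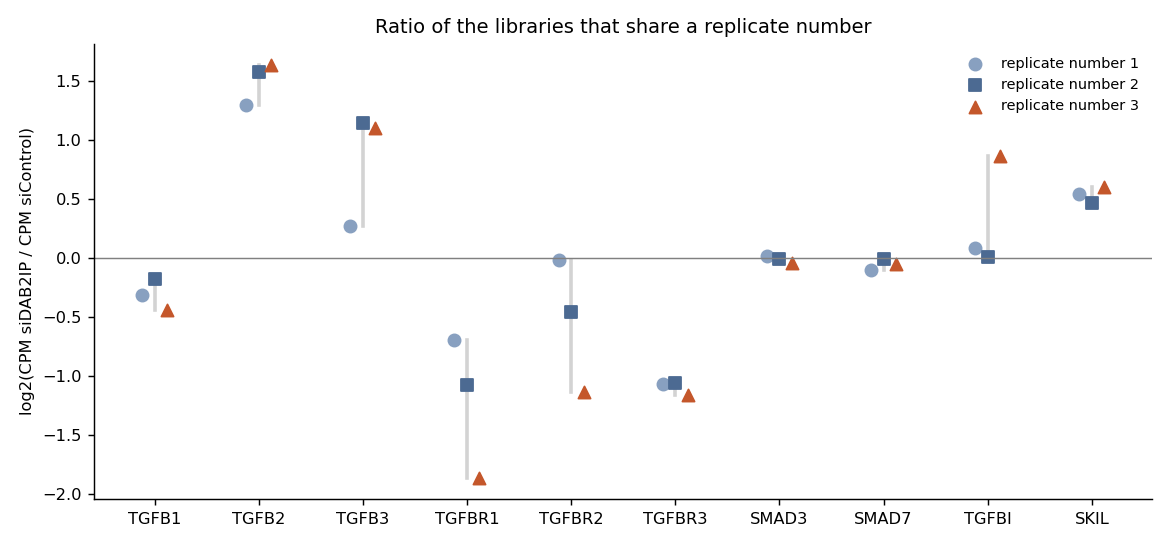
Log2 ratio of CPM in siDAB2IP to CPM in siControl for the libraries that share a replicate number (circle, square and triangle for numbers 1, 2 and 3; grey line, range). The 3 ratios of TGFBR3 lie between −1.16 and −1.06, whereas those of TGFBR2 spread from −1.14 to −0.02.

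By FPKM, the order of levels in siControl was TGFBI (194 ± 39.8, SD), TGFBR2, TGFB1, TGFBR1, TGFBR3, SMAD3 (7.24 ± 0.64), SMAD7 (3.09 ± 0.33), SKIL (3.07 ± 0.45), TGFB2 and TGFB3. Within this order the ranges of TGFBR1 and TGFBR3 overlapped, as did those of SMAD7 and SKIL, and all other neighbors were separated. In siDAB2IP the upper 3 genes kept their order, and SMAD3 (7.17 ± 0.81) followed. TGFB2, SKIL (4.45 ± 0.74), TGFBR3, TGFBR1 and SMAD7 (2.97 ± 0.34) came next with overlapping ranges between neighbors, and TGFB3 was again the lowest. TGFB2 thus moved from the 9th to the 5th place of the order.

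The genes most like TGFB2 and TGFBR3 over the 6 libraries were found by the Euclidean distance of centered log2 CPM among 9436 genes with a mean of at least 10 CPM. Among the genes nearest to TGFB2 were F3, which codes for tissue factor (distance 0.287), and CDH24, a cadherin gene (0.436). Their log2 fold changes were 1.40 and 1.57. Nearest to TGFBR3 were RAB7B, a small GTPase gene (0.186), and PGBD5 (0.217), with log2 fold changes of −1.15 and −1.13. These genes were selected for their likeness, so that their direction follows from the selection.

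Genes that hold TGF-β latent or activate it changed in both directions. Of 16 genes, 13 were tested, 1 rose (beside 6.55% of all genes tested), 3 fell (beside 7.65%) and 9 did not pass the test. LTBP3, a latent TGF-β binding protein gene, rose from 280, 255 and 194 CPM in siControl to 445, 458 and 326 CPM in siDAB2IP (log2 fold change 0.75 ± 0.17, SE). ITGB8, whose integrin releases active TGF-β, fell from 367, 394 and 395 CPM to 224, 210 and 132 CPM (−1.03 ± 0.18). LTBP4 fell by 0.55 and MMP14, a membrane protease gene, by 0.50 on the log2 scale. The median log2 fold change was 0.22. In the fit blocked on replicate number 8 genes were called, 4 in each direction, beside 1479 higher and 1754 lower of 15430 genes tested. Without both libraries of replicate 3 also 4 rose and 4 fell, beside 1059 higher and 1304 lower of 15502 genes tested. The count was 2 when either siControl replicate 1 or siControl replicate 2 was left out, and 7 when siDAB2IP replicate 3 was.

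Of the transduction and feedback genes, which include the SMADs, their adaptors, ubiquitin ligases and corepressors, 33 of 34 were tested, 4 fell and 0 rose, beside 7.65% and 6.55% of all genes tested. With 14.2% of all genes called in either direction, the count called in this list was near that of genes at large. By edgeR, 11 of the 33 had an unadjusted p under 0.05 (2 higher and 9 lower), beside 4636 of all 15430 genes tested. DESeq2 also called 0 that rose and 4 that fell. In the fit blocked on replicate number 1 gene rose, ENG, a coreceptor gene, and 5 fell, beside 1479 and 1754 of 15430 genes. ENG also rose without both libraries of replicate 3. Besides SMAD2 the 4 genes that fell were CD109, a coreceptor that dampens TGF-β signaling (−0.62 ± 0.14, SE), WWP1, a ubiquitin ligase gene (−0.57 ± 0.14), and TGIF2, a SMAD corepressor gene (−0.52 ± 0.13). CD109 was at 787, 851 and 822 CPM in siControl and at 594, 584 and 420 CPM in siDAB2IP. The median log2 fold change was −0.08. The count of 4 became 0 when siControl replicate 2 was left out, 2 when siControl replicate 3 was, and 1 when siDAB2IP replicate 1 was. In the activin branch 11 of 16 genes were tested, 1 rose and 1 fell, beside the same shares of all genes. FSTL3, which codes for an activin-binding protein, rose from 268, 269 and 305 CPM to 483, 510 and 441 CPM (0.77 ± 0.11), and GDF11, a ligand gene, fell from 9.35 to 11.8 CPM in siControl to 5.97 to 6.54 CPM in siDAB2IP (−0.79 ± 0.16). Without siControl replicate 2 or without siControl replicate 3, 1 of these 11 genes was called.

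Of 56 genes known to be induced by TGF-β, 51 were tested, of which 11 rose (beside 6.55% of all genes tested), 4 fell (beside 7.65%) and 36 did not pass the test. Like the other lists, this list was chosen with earlier results of these data known, so its counts are not an independent test. The 6 with the smallest p that rose were ANGPTL4, ITGA5, SPHK1, CDKN1A, IGFBP7 and FSTL3. ANGPTL4, a secreted regulator of lipoprotein lipase, was at 78.0, 92.9 and 74.4 CPM in siControl and at 246, 291 and 260 CPM in siDAB2IP, a log2 fold change of 1.70 ± 0.12 (SE; edgeR adjusted p = 9.71e-05). ITGA5, the fibronectin receptor subunit, was at 621, 616 and 635 CPM and at 1321, 1305 and 1332 CPM (1.08 ± 0.11). For both genes the libraries of each group lay close together. CDKN1A, the cell cycle inhibitor p21, rose from 149, 147 and 148 CPM to 369, 454 and 739 CPM (1.81 ± 0.22). SPHK1, a sphingosine kinase gene, rose by a log2 fold change of 1.57 and IGFBP7, which codes for a secreted insulin-like growth factor binding protein, by 0.92. FSTL3 belongs to this list and to the activin branch. Among the other genes that rose were LOXL2, HMOX1, COL1A1 and BMF. The 4 that fell were VIM, MMP9, GADD45B and COL4A1. Without both libraries of replicate 3, 13 rose and 4 fell, beside 1059 and 1304 of 15502 genes tested. Among the 4 that fell there, TPM1, a tropomyosin gene, stood in place of GADD45B. VIM, the intermediate filament vimentin, fell from 132, 133 and 136 CPM to 71.2, 69.1 and 63.1 CPM (−0.98 ± 0.09), although it is a gene that TGF-β is known to raise. MMP9 was low throughout, at 23, 31 and 18 counts in siControl and 6, 7 and 1 counts in siDAB2IP. The median log2 fold change of the 51 genes was 0.21, and without siControl replicate 2 the count of 15 fell to 8.

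Of 14 genes known to be repressed by TGF-β, 13 were tested, 1 rose (beside 6.55% of all genes tested) and 3 fell (beside 7.65%). DESeq2 called 2 that rose and 2 that fell. The fit blocked on replicate number called 2 and 3, beside 1479 and 1754 of 15430 genes tested. CLDN4, a tight junction gene, rose from 29.5, 28.8 and 20.0 CPM to 64.6, 79.9 and 60.9 CPM (log2 fold change 1.39 ± 0.16, SE). The cell cycle genes CDK4 (−0.96 ± 0.11), E2F1 (−1.20 ± 0.25) and CCNA2 (−1.17 ± 0.35) fell, of which CCNA2 was not called by DESeq2. For CCNA2 siDAB2IP replicate 3, at 6.67 CPM, was the lowest of the siDAB2IP libraries, which were at 17.2 and 24.7 CPM otherwise. The median log2 fold change was 0.05. Without siDAB2IP replicate 3, and also without both libraries of replicate 3, 7 of these genes were called. Of all genes tested, 1172 were higher and 1352 lower in the former fit, and 1059 and 1304 in the latter. ITGB8, WWP1, COL4A1, IGFBP7, ANGPTL4, VIM, ITGA5, SPHK1, CDK4 and CCNA2 share positions with a tested gene of the opposite strand, so that part of their counts may belong to that gene.

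**Figure D5:**
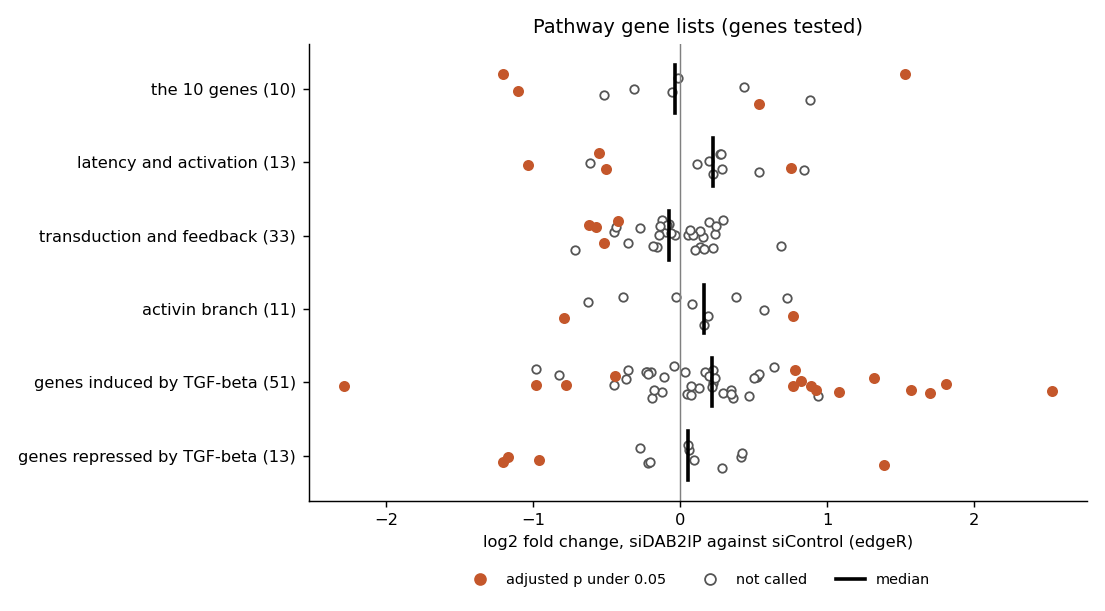
Log2 fold changes by edgeR of the tested genes of each pathway list (points; filled, adjusted p under 0.05; black line, median; number of genes tested in brackets; points are spread vertically for display). Genes induced by TGF-β hold 11 called genes above 0 and 4 below it, and the medians of the 6 rows lie between −0.08 and 0.22.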

How the data were processed

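RNA was extracted 48 hours after transfection, and libraries were made and sequenced by Novogene. Per the submitters' processing notes, STAR 2.6.1d, featureCounts 1.5.0-p3, DESeq2 1.20.0 and edgeR 3.24.3 were used with build hg38. The strand used in counting is not given in the sources used here. The authors deposited a table of raw counts per gene and library, and a table of FPKM, in which counts were scaled by gene length and library total.

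The count model was edgeR 4.0.16 under R 4.3.3 (glmQLFit and glmQLFTest after TMM scaling, low counts filtered with filterByExpr), with Benjamini-Hochberg adjustment over 15430 genes. Genes with an adjusted p under 0.05 were called. SEs were derived from the F statistic. The upper limit for a gene without reads, 3 counts, was 0.137 to 0.183 CPM by library and covers counting error only. Shares were computed from FPKM and tested with two-sided exact permutation tests, and samples were grouped by their labels. Alternatives were DESeq2 1.42.0, its size factors (RLE), library size only, no filter, at least 10 counts in every library, the replicate number as a block, an adjusted p under 0.01, limma 3.58.1 on log2(FPKM + 1) (genes with a mean of at least 1 FPKM, or all genes) and log2(FPKM + 0.1), counts in place of FPKM for shares, and leaving out each library. The fits were tested on simulated counts with the same relative spread between libraries for every gene and no replicate effect. These counts therefore do not cover the pairing or the libraries of replicate 3.

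Libraries with the same replicate number deviated together from their group means (correlation across genes 0.26, 0.15 and 0.25, and −0.28 to 0.02 for different numbers). The ratios by replicate number and the blocked fit therefore treated numbers as pairs, an inference from the data. The main fit had no block, so that its calls do not use this pairing. With the block, 1479 of all genes tested were higher and 1754 lower. The members and gene lists were chosen with earlier results of these data known. Named were the 10 genes, DAB2IP, SMAD2, SMAD4, the called genes of each pathway list (described in detail for at most 6 in each direction) and the 3 genes most like the member with the smallest p in each direction. LOXL2, HMOX1, COL1A1, BMF, ENG and TPM1, the marker genes and the genes that overlap others were named outside this rule after their values were seen. Some genes that the rule names are not reported here. Protein sequences were not used here.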

Additional observations from a re-analysis of the deposited data

How the results depend on the processing

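TGFBR3 and DAB2IP kept their direction and their call under every alternative. TGFB2 and TGFBR1 did so except with limma on log2(FPKM + 1) over all genes (1.08 and −1.04; adjusted p = 0.0916 and 0.0756), where 0 of the 10 genes rose, 1 fell (TGFBR3), and the counts were 0 for latency, 0 for transduction, 1 for activin, 8 for induced and 2 for repressed genes, and 176 higher and 202 lower of all genes. DESeq2 added TGFB1 (−0.32) and TGFBR2 (−0.52), so that 4 fell. With the replicate number as a block, TGFB1 (−0.31) and TGFB3 (0.85) were called, as were 8 latency genes, and the block changed no other call of the 10 genes. With no filter TGFB3 (0.87), TGFBR2 (−0.53) and TGFBI (0.42) were called, and 4 rose. With at least 10 counts in every library TGFB1 was called (−0.33) and SKIL was not (0.52), so that 1 rose. SKIL was not called with limma on log2(FPKM + 1) (0.42) or log2(FPKM + 0.1) (0.52); there TGFB3 was below the FPKM minimum, 1 gene rose and 1 activin gene was called, and with the smaller pseudocount 659 genes were higher and 758 lower. At an adjusted p under 0.01, 1 of the 10 genes rose, and 1 latency, 0 transduction, 1 activin, 8 induced and 2 repressed genes were called, with 254 higher and 368 lower of all genes. SMAD3 turned to 0.025 with library size only and to 0.003 without both libraries of replicate 3. In that last fit 8 latency, 17 induced and 7 repressed genes were called, with 1059 higher and 1304 lower of all genes. With counts in place of FPKM the shares differed by −11.6 (TGFB1), 10.2 (TGFB2), −2.81 (TGFBR1), 5.53 (TGFBR2) and 6.83 (SMAD3) percentage points. The causes were not tested.

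Leaving out each library in turn, 1 to 2 of the 10 genes rose and 2 fell. SKIL ranged from 0.40 to 0.64, SMAD3 from −0.10 to 0.06, SMAD7 from −0.15 to 0.03 and TGFBI from −0.13 to 0.67. SMAD3 turned to 0.034 without siControl replicate 1 and to 0.064 if siDAB2IP replicate 3 was left out, SMAD7 to 0.025 without siControl replicate 3 and to 0.015 if siDAB2IP replicate 1 was left out, and TGFBI to −0.13 without siDAB2IP replicate 3. The counts called ranged from 2 to 7 for latency, 0 to 5 for transduction, 1 to 3 for activin, 8 to 16 for induced and 3 to 7 for repressed genes. Over all genes 264 to 1172 were higher and 459 to 1352 lower: 434 and 752 without siControl replicate 1, 264 and 459 without siControl replicate 2, 398 and 650 without siControl replicate 3, and 658 higher without siDAB2IP replicate 1. At 33 to 117 counts per library, TGFB3 had the fewest counts of the 10 genes.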
